A study of Homo sapiens with 8 samples.

Results

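The interleukin-1 (IL-1) family and its receptors were followed here as 10 genes of the 58233 in the count table. They are the receptors IL1R1, IL1RAP and IL1RL1, the decoy receptor IL1R2, the ligands IL1A, IL1B, IL18, IL33 and IL36G, and the receptor antagonist IL1RN. All 10 were found by their Ensembl identifiers. The family was selected on the difference between RBM6-KO1 and control cells, in which IL1R2 stood out. The values and calls of that contrast therefore describe the members and are no test of them.

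The cells are MCF10A, an immortal line of human breast epithelium that forms no tumours by itself and here carries H-Ras as an oncogene. The groups were control cells left untreated, control cells 12 h after 5 Gy of ionising radiation (IR), and RBM6-KO1 cells under the same pair of conditions. Each group had 2 replicates, A and B, giving 8 libraries of poly(A) RNA. RBM6 is an RNA-binding protein with a role in splicing, and RBM6-KO1 is a single clone cut in RBM6 exon 3 with a Cas9 nickase, so what belongs to the loss of RBM6 and what belongs to the clone cannot be told apart. Cells of all groups grew with horse serum, EGF, insulin, cholera toxin and hydrocortisone, a glucocorticoid.

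IL-1α, made by IL1A, and IL-1β, made by IL1B, bind IL1R1, which then recruits the shared accessory chain encoded by IL1RAP and signals through MyD88 and IRAK kinases to NF-kB. IL1R2 binds the same ligands but lacks the signalling domain, and it can be shed from the cell surface as a soluble decoy. IL1RL1, also called ST2, is the receptor for IL-33 and uses the same accessory chain. In epithelia, IL-1α and IL-33 are held as alarmins that leave damaged cells, while IL-1β and IL-18 need cleavage by caspase-1, which inflammasomes activate.

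IL1R2, IL1R1 and IL1RL1 lie in 1 receptor cluster on chromosome 2, where IL1R2 spans chr2:101991960-102028544, IL1R1 chr2:102064544-102179874 and IL1RL1 chr2:102311502-102352037 on the plus strand of hg38. IL1A, at chr2:112773925-112784493, and IL1B, at chr2:112829751-112836816, lie together on the minus strand farther along the chromosome. IL33 is at chr9:6215786-6257983. The RefSeq promoter windows (GRCh38.p14, from 250 bases before to 50 bases after a start site) of IL1R2, IL1RL1, IL33 and IL1A are shown because the first pair had more reads in RBM6-KO1 cells, IL33 had fewer, and IL1A showed little difference between genotypes. For each gene the window nearest to its annotated start is given 5′ to 3′, and capitals mark matches to the TATA box (TATAAA) or to the AP-1 motif (TGANTCA, where N is any base).
IL1R2: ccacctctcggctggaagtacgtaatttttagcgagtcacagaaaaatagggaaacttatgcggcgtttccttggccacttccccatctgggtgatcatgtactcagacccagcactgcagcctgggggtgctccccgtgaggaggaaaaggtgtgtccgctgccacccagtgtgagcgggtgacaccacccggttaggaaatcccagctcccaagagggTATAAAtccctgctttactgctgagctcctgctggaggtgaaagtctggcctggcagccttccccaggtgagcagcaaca
IL1RL1: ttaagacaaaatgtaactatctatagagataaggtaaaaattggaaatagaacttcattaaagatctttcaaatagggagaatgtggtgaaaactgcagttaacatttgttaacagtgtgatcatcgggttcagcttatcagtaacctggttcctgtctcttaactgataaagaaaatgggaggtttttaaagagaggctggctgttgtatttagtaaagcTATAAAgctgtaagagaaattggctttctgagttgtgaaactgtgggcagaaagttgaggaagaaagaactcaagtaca
IL33: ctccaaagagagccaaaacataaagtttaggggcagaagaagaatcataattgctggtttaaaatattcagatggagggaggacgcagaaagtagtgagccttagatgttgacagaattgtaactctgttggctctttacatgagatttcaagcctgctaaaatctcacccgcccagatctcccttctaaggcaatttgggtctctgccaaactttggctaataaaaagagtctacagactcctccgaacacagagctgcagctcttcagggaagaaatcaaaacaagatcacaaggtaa
IL1A: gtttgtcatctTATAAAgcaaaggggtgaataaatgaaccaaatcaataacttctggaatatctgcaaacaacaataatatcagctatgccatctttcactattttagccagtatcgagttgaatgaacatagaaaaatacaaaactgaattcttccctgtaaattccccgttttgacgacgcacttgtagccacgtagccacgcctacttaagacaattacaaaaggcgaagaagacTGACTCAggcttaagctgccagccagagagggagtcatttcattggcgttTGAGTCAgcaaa
These windows lie at chr2:101991710-101992009, plus strand for IL1R2, chr2:102311313-102311612, plus strand for IL1RL1, chr9:6215557-6215856, plus strand for IL33 and chr2:112784444-112784743, minus strand for IL1A. A TATA box begins 30 bases before the start in IL1R2 and 29 bases before it in IL1RL1. IL1A holds AP-1 matches beginning 12 bases before and 38 bases after the start, and a TATA box 239 bases before it. Windows were found for 9 of the 10 members, and of the 9 nearest to the gene start, 3 held a TATA box and 2 an AP-1 match. The nearest windows of IL1R1, IL1RN and IL36G have start sites 40060, 18656 and 4803 bases from the annotated gene start. That of IL1RN holds 1 of the AP-1 matches. Both strands were searched, and no overlap between motifs was removed. Over all 35116 RefSeq windows of this length the shares were 11.5% for the TATA box and 7.71% for AP-1. The NF-kB motif and the glucocorticoid response element had no match in any of the members' 18 windows, against 5.91% and 0.179% of all windows. The p53 half-site was found in 1 window, that of IL1R1, against 6.63% of all windows. A match describes letters in a window and shows no binding.

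The table held 15355281 to 29832009 counts per library, and a count of 0 allows up to 3 counts, or 0.101 to 0.195 CPM (counts scaled to a common library total), which covers counting error only. RBM6 itself had 66.8 and 68.7 normalised CPM in untreated control cells and 61.4 and 63.1 in untreated RBM6-KO1 cells, so counts over the whole gene give no check of the edit in exon 3. Replicate B after IR stood apart from the other libraries in both genotypes. In these libraries a gene's deviation from its mean over the 8 libraries rose with exon length, with Spearman's rho of 0.353 in control and 0.313 in RBM6-KO1 cells over 16417 genes, against -0.271 to -0.00234 in the other 6. IL1RAP, IL1R1 and IL1RL1 are the longest members, with 11210, 7123 and 5746 exonic bases, so their values are given with those of each library, and their responses to IR are given also from fits with trends in GC content and length removed.

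The ligands IL1B and IL1A were the most abundant members, and IL1R2 was among the least abundant ones in control cells. Levels were compared between genes as normalised CPM per kb of exon. In untreated control cells the level per kb was 324 ± 7.37 (SD, n = 2) for IL1B and 229 ± 8.51 for IL1A, placing them 101st and 152nd of 16417 genes. IL18 followed at 47.1 ± 3.70, IL1RL1 at 29.1 ± 1.36, IL33 at 7.22 ± 1.62 and IL1R1 at 2.69 ± 0.330 CPM per kb. IL1RAP at 0.742 ± 0.273 and IL1R2 at 0.574 ± 0.137 CPM per kb had overlapping libraries and cannot be ordered. In untreated RBM6-KO1 cells IL1RL1 at 57.8 ± 12.5 CPM per kb lay above IL18 at 36.2 ± 0.511, and IL1R2 at 16.4 ± 0.648 lay above IL1R1 at 5.05 ± 1.11 and IL33 at 1.74 ± 0.450. Dividing by the median transcript length instead put IL1R1, at 11.4 CPM per kb, above IL33, at 9.73, in untreated control cells.

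IL1RN and IL36G were nearly silent. IL1RN, whose product blocks IL1R1, had 1 and 6 counts in untreated control cells, 1 and 10 after IR, while RBM6-KO1 cells had 6 and 3 untreated and 8 and 6 after IR. IL36G had 0 to 3 counts in every library. Neither passed the filter on low counts in any comparison, so 8 of the 10 members were tested.

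**Figure D1:**
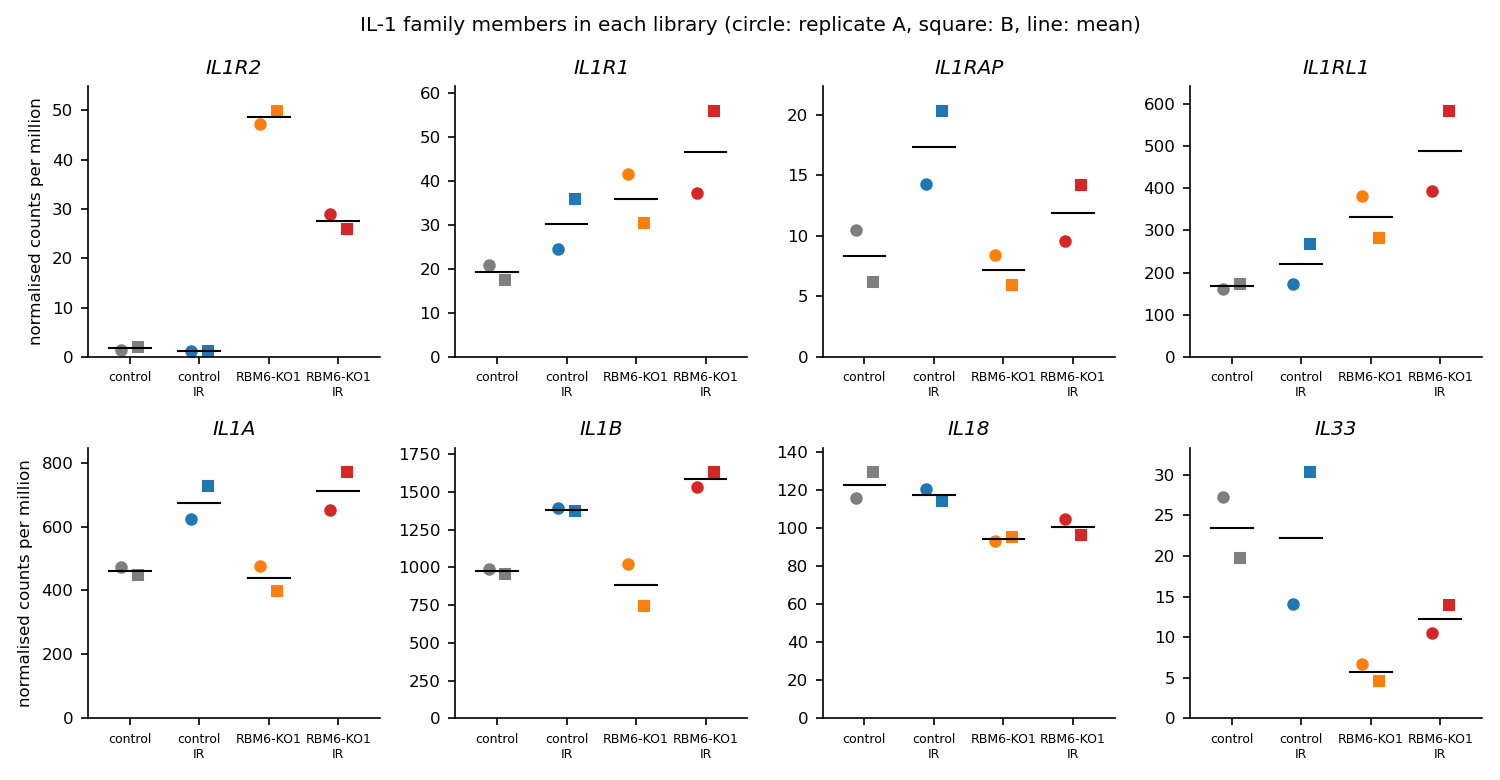
Normalised CPM (vertical axis, from 0) of the 8 tested members in each of the 8 libraries, with circles for replicate A, squares for replicate B and lines for the mean of each group (horizontal axis). IL1R2 lies between 1.13 and 1.98 CPM in control libraries and between 25.9 and 49.9 in RBM6-KO1 libraries, and IL1A and IL1B are higher after IR in both genotypes.

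The first question is how the members differ between RBM6-KO1 and control cells, the contrast from which they were selected. IL1R2 had 1.41 and 1.98 normalised CPM in untreated control cells and 47.2 and 49.9 in untreated RBM6-KO1 cells. After IR it had 1.23 and 1.13 CPM in control and 29.0 and 25.9 in RBM6-KO1 cells. Every RBM6-KO1 library was above every control library, with log2 fold changes of 4.81 (SE 0.24) untreated and 4.55 (SE 0.25) after IR, or 28.0-fold and 23.5-fold.

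The signalling receptor IL1R1 had 20.8 and 17.5 CPM in untreated control cells against 41.5 and 30.4 in untreated RBM6-KO1 cells. After IR it had 24.5 and 35.9 CPM in control and 37.2 and 56.0 in RBM6-KO1 cells. The groups did not overlap in either condition, and the log2 fold changes were 0.90 (SE 0.20) and 0.62 (SE 0.27). Within a library, the level of IL1R2 per kb divided by that of IL1R1 was 0.163 and 0.273 in untreated control cells and 2.74 and 3.96 in untreated RBM6-KO1 cells. After IR this ratio was 0.121 and 0.0754 in control and 1.88 and 1.11 in RBM6-KO1 cells, and every RBM6-KO1 library lay above every control library. Divided by the median transcript length, the ratio was 2.37 and 3.43 in untreated and 1.63 and 0.964 in irradiated RBM6-KO1 cells, so whether decoy mRNA exceeded IL1R1 mRNA in irradiated replicate B depends on the length used. The ratio of mRNA levels says nothing of the proteins at the cell surface.

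IL1RL1, the IL-33 receptor, had 162 and 173 CPM in untreated control cells and 383 and 282 in untreated RBM6-KO1 cells. After IR it had 172 and 267 CPM in control and 394 and 585 in RBM6-KO1 cells. The log2 fold changes were 0.98 (SE 0.16) and 1.16 (SE 0.27), and the groups did not overlap. The accessory chain IL1RAP had 10.5 and 6.16 CPM in untreated control against 8.43 and 5.91 in untreated RBM6-KO1 cells, which overlapped. After IR it had 14.3 and 20.4 against 9.54 and 14.2 CPM, and its log2 fold changes were -0.21 (SE 0.28) and -0.55 (SE 0.28).

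IL33, whose product binds IL1RL1, was lower in untreated RBM6-KO1 than in untreated control cells, while IL1RL1 was higher. It had 27.2 and 19.8 CPM in untreated control cells and 6.69 and 4.62 in untreated RBM6-KO1 cells, and its log2 fold change was -2.05 (SE 0.24). After IR it had 14.03 and 30.3 CPM in control and 10.5 and 13.9 in RBM6-KO1 cells, and the log2 fold change was -0.87 (SE 0.37). That value was -0.20 without control IR replicate B and -1.32 without control IR replicate A, so it turns on the spread between the control libraries. Within a library, IL1RL1 per kb was 3.36 to 6.95 times IL33 per kb in control cells and 21.3 to 34.5 times in RBM6-KO1 cells.

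The other ligands were close between genotypes. IL1A had 474 and 450 CPM in untreated control and 475 and 400 in untreated RBM6-KO1 cells, and IL1B had 991 and 959 against 1024 and 747. These groups overlapped, with log2 fold changes of -0.09 (SE 0.14) for IL1A and -0.15 (SE 0.16) for IL1B. After IR the log2 fold changes were 0.08 (SE 0.17) for IL1A and 0.20 (SE 0.15) for IL1B. IL18 had 116 and 130 CPM in untreated control and 93.4 and 95.3 in untreated RBM6-KO1 cells, and its log2 fold changes were -0.39 (SE 0.14) untreated and -0.22 (SE 0.15) after IR.

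A call needed an adjusted p under 0.05 (edgeR, Benjamini-Hochberg over all genes tested) with at least a 2-fold change. In untreated cells 2 of the 8 tested members, IL1R2 and IL33, met this in the comparison they were selected from, beside 3.12% of all 15556 genes tested. With the adjusted p alone the count was 4, with IL1R1 and IL1RL1 added, beside 6.12%. After IR it was 1, IL1R2, beside 1.17% of 15587 genes. These counts describe the selection and cannot show that members were called more often than other genes.

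The next question is how the members responded to IR, a contrast that their selection on the genotype did not use, although every library of an IR comparison also enters a genotype comparison. In control cells no member of the 8 was called, beside 3.59% of 15412 genes called, and none passed with the adjusted p alone, beside 5.72%. At an unadjusted p under 0.05, 4 members passed, beside 3918 of the 15412 genes. DESeq2's Wald test called 1, IL1RAP. The groups did not overlap in 5 of the 8 members, beside 57.1% of all genes tested.

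In control cells the accessory chain IL1RAP had the largest difference among the members, with both IR libraries above both untreated ones. Its log2 fold change was 1.06 (SE 0.29, edgeR adjusted p = 0.0563). It was 0.87 with GC and length trends removed (edgeR adjusted p = 0.00903), which passed the adjusted p but lay under 2-fold. It ranged from 0.73 without control untreated replicate B (edgeR adjusted p = 0.440) to 1.47 without control untreated replicate A (edgeR adjusted p = 0.0206), and IL1RAP was called without the latter and without control IR replicate A. IL1A went from 474 and 450 CPM untreated to 623 and 726 after IR, a log2 fold change of 0.54 (SE 0.16, edgeR adjusted p = 0.0719). IL1B went from 991 and 959 to 1391 and 1371 CPM, a log2 fold change of 0.49 (SE 0.16, edgeR adjusted p = 0.0912). With the trends removed IL1A had a log2 fold change of 0.62 and an edgeR adjusted p of 0.0103. Without control IR replicate A both ligands passed the adjusted p, as did IL1B without control IR replicate B.

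IL1R1 in control cells had a log2 fold change of 0.65 (SE 0.24, edgeR adjusted p = 0.118) and IL1RL1 one of 0.39 (SE 0.20, edgeR adjusted p = 0.249). With GC and length trends removed these were 0.44 for IL1R1 and 0.19 for IL1RL1. Both turned on the irradiated libraries. IL1R1 was at 0.34 without control IR replicate B and 0.91 without control IR replicate A (edgeR adjusted p = 0.000724). IL1RL1 was at 0.030 without replicate B and 0.68 without replicate A (edgeR adjusted p = 9.5e-05). IL1R2 had a log2 fold change of -0.55 (SE 0.40) and did not pass (edgeR adjusted p = 0.405). IL18 and IL33 had log2 fold changes of -0.07 (SE 0.16) and -0.08 (SE 0.32), and their groups overlapped. IL33 changed sign with the library left out, from -0.75 without control IR replicate B (edgeR adjusted p = 0.0477) to 0.38 without control IR replicate A.

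In RBM6-KO1 cells IL33 was the member called, 1 of 8 beside 3.11% of 15598 genes. It rose from 6.69 and 4.62 CPM to 10.5 and 13.9, a log2 fold change of 1.08 (SE 0.26, edgeR adjusted p = 0.0455). The groups did not overlap. After IR the higher RBM6-KO1 library, at 13.9 CPM, lay close to the lower control library, at 14.03, while the other control library had 30.3. The call was lost without RBM6-KO1 untreated replicate B (log2 fold change 0.86, edgeR adjusted p = 0.162), without RBM6-KO1 IR replicate B (0.88, edgeR adjusted p = 0.0700) and with all 8 libraries in 1 fit (edgeR adjusted p = 0.0876).

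With the adjusted p alone, 4 members passed in RBM6-KO1 cells, beside 5.67% of all genes. Besides IL33 they were IL1R2, IL1B and IL1A, each under 2-fold. IL1R2 went from 47.2 and 49.9 CPM to 29.0 and 25.9, a log2 fold change of -0.84 (SE 0.16, edgeR adjusted p = 0.0278). Both irradiated RBM6-KO1 libraries were still above 25 CPM, far over every control library. IL1B went from 1024 and 747 CPM to 1535 and 1632, a log2 fold change of 0.82 (SE 0.17, edgeR adjusted p = 0.0342). IL1A went from 475 and 400 CPM to 652 and 770, a log2 fold change of 0.68 (SE 0.16, edgeR adjusted p = 0.0435).

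These 3 results lay near the threshold. Without RBM6-KO1 untreated replicate B the edgeR adjusted p was 0.0998 for IL1R2, 0.137 for IL1B and 0.221 for IL1A. Without RBM6-KO1 IR replicate B it was 0.0743 for IL1R2 and 0.226 for IL1A. With GC and length trends removed, IL1R2, IL1A, IL1B and IL33 all kept an adjusted p under 0.05. The receptors IL1RAP (log2 fold change 0.71, SE 0.27), IL1RL1 (0.54, SE 0.21) and IL1R1 (0.36, SE 0.23) did not pass, nor did IL18 (0.08, SE 0.15). With the trends removed the receptors were at 0.57, 0.37 and 0.17 in that order. Without RBM6-KO1 IR replicate A all 3 passed the adjusted p, at 0.98, 0.82 and 0.64, and without RBM6-KO1 IR replicate B they were at 0.40, 0.24 and 0.044 and did not. IL1RAP and IL1RL1 also passed it without RBM6-KO1 untreated replicate A, at 1.01 and 0.80. The groups did not overlap in 7 of the 8 members, beside 62.1% of all genes tested.

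**Figure D2:**
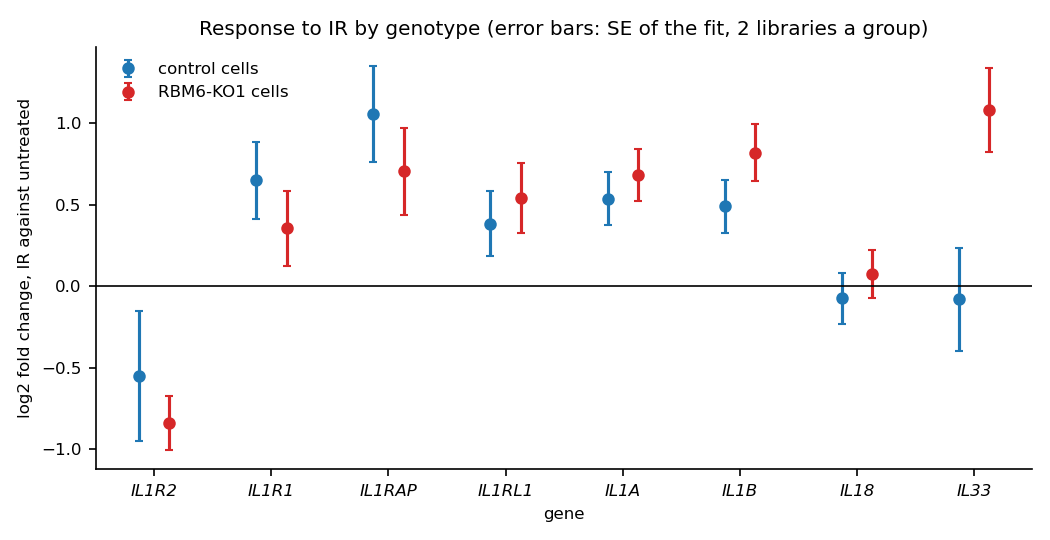
Log2 fold change of IR against untreated (vertical axis) for the 8 tested members (horizontal axis), in control cells (blue) and RBM6-KO1 cells (red), with bars for the standard error of the fit from 2 libraries a group. IL1A and IL1B lie above 0 and IL1R2 below 0 in both genotypes, and IL33 lies at -0.08 in control and 1.08 in RBM6-KO1 cells.

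The difference between genotypes in the response to IR was tested as an interaction over all 8 libraries. No member and none of the 16549 genes passed an adjusted p under 0.05 in edgeR, a background of 0.0%, nor did any in DESeq2. At an unadjusted p under 0.05 there were 306 genes in edgeR and 167 in DESeq2. IL33 had the largest member estimate, a response higher in RBM6-KO1 cells by 1.17 on the log2 scale (SE 0.49, edgeR unadjusted p = 0.0363). The other 7 estimates lay between -0.35 and 0.34. A difference in the IR response of IL33 was therefore not detectable after adjustment, though IL33 was called in 1 genotype and not in the other.

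Of the 6 receptor genes of the cluster around IL1R2, 5 were tested in untreated cells. All 5 had log2 fold changes above 0 in RBM6-KO1 against control, beside 7930 of all 15556 genes tested. The members IL1R2, IL1R1 and IL1RL1 are among the 5, so for them the count describes the selection. IL18RAP passed the filter on low counts only through the RBM6-KO1 libraries, so the count of 5 is no test of the cluster. IL18R1, which encodes the IL-18 receptor chain, had 9.87 and 9.06 CPM in untreated control and 17.9 and 13.7 in untreated RBM6-KO1 cells, and its log2 fold change was 0.73 (SE 0.22, edgeR adjusted p = 0.0587). IL18R1 shares 95 exonic bases with IL1RL1 on the same strand, so reads there could be given to either gene. IL18RAP, its partner chain, had 5 and 5 counts against 11 and 11 and a log2 fold change of 1.21 (SE 0.64, edgeR adjusted p = 0.336). After IR it had 6 and 4 counts in control and 9 and 0 in RBM6-KO1 cells and was not tested. IL1RL2, the IL-36 receptor, had 0 to 2 counts in every library. The non-coding LINC01127, whose start lies at -29.9 kb from that of IL1R2, had a log2 fold change of 2.22 (SE 0.67, edgeR adjusted p = 0.0584). It rests on few counts, 4 and 3 in untreated control and 22 and 10 in untreated RBM6-KO1 cells, and passed the filter only through the latter. After IR it had 5 and 7 against 10 and 13 counts, a log2 fold change of 1.12 (SE 0.56, edgeR adjusted p = 0.544).

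The 9 other tested genes, LINC01127 included, starting within 1 Mb of IL1R2 showed a median difference of 0.06 (log2) between untreated groups, and none was called. On the side before IL1R2, MAP4K4, starting at -295 kb, had a log2 fold change of 0.29 (SE 0.14), and RNF149, CNOT11, TBC1D8 and RPL31 lay between -0.17 and -0.01. RFX8, with 2 to 15 counts in the control libraries, was at 0.22 (SE 0.69). On the other side MFSD9 and TMEM182 both start at 745 kb. MFSD9 was at 0.06 (SE 0.26) untreated and -0.05 after IR, and TMEM182, with 38 to 111 counts in the control libraries, at 0.46 (SE 0.33) untreated and 0.78 (SE 0.29) after IR. Neighbouring genes share a chromosome and a clone, and whether copy number differs there was not tested.

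**Figure D3:**
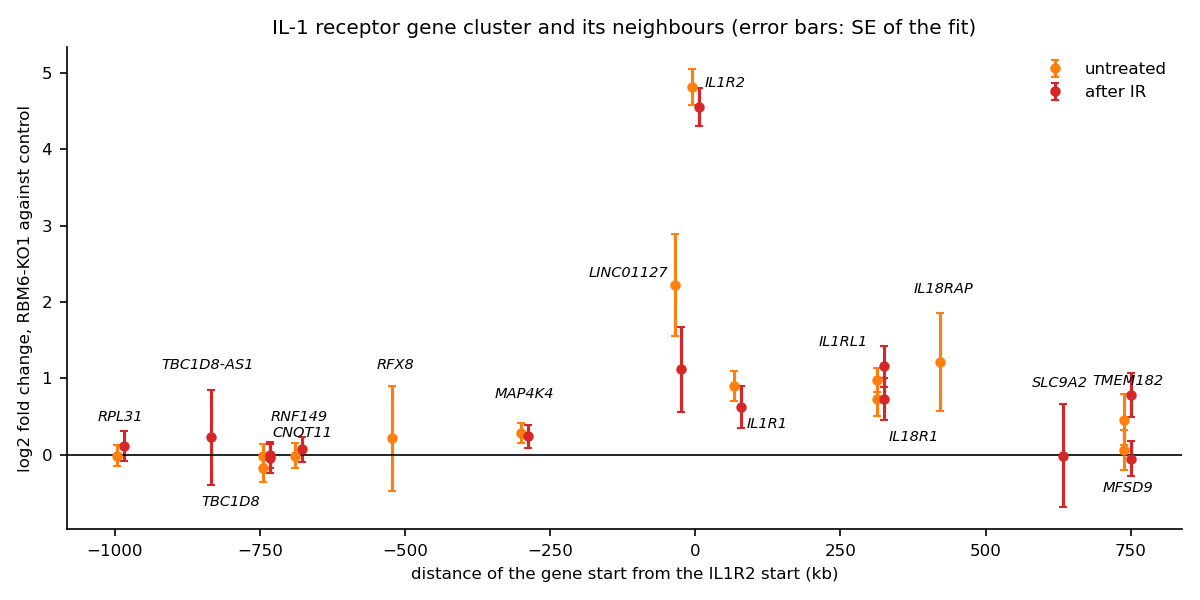
Log2 fold change of RBM6-KO1 against control (vertical axis) by distance of each gene's start from that of IL1R2 in kb (horizontal axis), untreated (orange) and after IR (red), for every tested gene within 1 Mb, with the colours set slightly apart sideways and bars for the standard error of the fit. IL1R2 stands at 4.81 and 4.55, the other receptor genes lie between 0.62 and 1.21, and the flanking genes other than LINC01127 lie between -0.17 and 0.78.

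The pathway around the members was described with lists of genes. Of 31 genes of IL-1 receptor signalling, from MYD88 and the IRAK kinases to the NF-kB subunits, 28 were tested in untreated cells. Of these 1 was called, beside 3.12% of all genes tested. It was UBE2V1, a cofactor of the ubiquitin ligase step at TRAF6, lower in RBM6-KO1 cells by a log2 fold change of -1.37 (SE 0.28, edgeR adjusted p = 0.00465). UBE2V1 shares sequence with a read-through transcript of its neighbour, so its counts are uncertain. The list's median was -0.03, against 0.01 over all genes. None of the list was called after IR (1.17% of all genes) or in the response to IR of control (3.59%) or RBM6-KO1 cells (3.11%). Of 8 genes of receptor shedding, such as ADAM17, which can release IL1R2 from the membrane, none was called in any comparison, beside the same shares. With the adjusted p alone, 1 was higher after IR in control cells, beside 5.72% of all genes, and 2 in RBM6-KO1 cells, beside 5.67%. The 1 in control cells was ADAM17, with a log2 fold change of 0.96 (SE 0.25, edgeR adjusted p = 0.0482), just under 2-fold. It had 13.7 and 13.9 CPM untreated and 20.6 and 33.1 after IR.

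Among 20 genes of IL-1 processing and release, 17 were tested in untreated cells. Of these 2 fell in RBM6-KO1 cells, PYCARD and NLRP3, beside 3.12% of all genes called. PYCARD, which encodes the inflammasome adaptor ASC, had 46 and 44 counts in untreated control cells, 35 and 63 after IR, and 0 in all 4 RBM6-KO1 libraries. Against a floor of 3 counts per library it was at least 12.7-fold lower in untreated RBM6-KO1 cells and at least 13.9-fold lower after IR (edgeR adjusted p = 5.08e-05 and 0.0154). NLRP3, the sensor of the same inflammasome, had 11.3 and 9.59 CPM in untreated control and 5.40 and 5.03 in untreated RBM6-KO1 cells, and its log2 fold change was -1.01 (SE 0.24, edgeR adjusted p = 0.0161). It lay close to 2-fold. The log2 fold change was -0.89 without control untreated replicate A, -0.95 without RBM6-KO1 untreated replicate B and -0.90 with GC and length trends removed, and the call was lost in each though the adjusted p stayed under 0.05. CASP1, which cleaves pro-IL-1β, had 32.4 and 33.9 against 21.4 and 21.1 CPM, a log2 fold change of -0.65 (SE 0.18, edgeR adjusted p = 0.0331), under 2-fold. The list's median was -0.18. After IR the only call in the list was PYCARD, beside 1.17% of all genes.

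Genes known as targets of NF-kB or IL-1 moved in both directions in RBM6-KO1 cells. Of 33 matched genes 27 were tested in untreated cells, and 5 rose and 2 fell, beside 3.12% of all genes called. The median over the list was 0.25. With the adjusted p alone, 11 were higher and 3 lower, beside 6.12% of all genes in either direction. The neutrophil-attracting chemokine CXCL2 had 50.6 and 41.8 CPM in untreated control and 111 and 98.0 in untreated RBM6-KO1 cells, and its log2 fold change was 1.16 (SE 0.16, edgeR adjusted p = 0.000139). CXCL3 had 63.0 and 65.4 against 165 and 139 CPM, a log2 fold change of 1.24 (SE 0.15). The others that rose were SAA2, an acute-phase protein (log2 fold change 1.56), TRAF1, a signalling adaptor (0.920 and 1.45 against 3.88 and 2.92 CPM), and LCN2, an iron-scavenging protein (1.05). CXCL2 and CXCL3, and SAA1 and SAA2, are near-copies whose reads could be divided in error.

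The genes that fell were PTGS2, which encodes cyclooxygenase-2, and MMP9, a matrix protease. PTGS2 had 27.8 and 21.2 CPM in untreated control and 8.49 and 8.42 in untreated RBM6-KO1 cells, and its log2 fold change was -1.54 (SE 0.21, edgeR adjusted p = 0.000177). MMP9 had 2.70 and 3.80 against 1.29 and 1.02 CPM. The feedback inhibitor NFKBIA did not pass, at 0.14.

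After IR the list median was 0.40. Of the 27 target genes tested, 4 rose in RBM6-KO1 against control and none fell, beside 1.17% of all genes called. They were the chemokines CXCL1 (log2 fold change 1.15), CXCL2 (1.32), CXCL3 (1.51) and CCL20 (1.18). CCL20 had 278 and 274 CPM in control and 600 and 642 in RBM6-KO1 cells when irradiated. CXCL1 and CCL20 were also higher in untreated RBM6-KO1 cells, at 0.90 and 0.95, just under 2-fold. In the response to IR no target gene was called in control cells, beside 3.59% of all genes. In RBM6-KO1 cells CXCL8 and PTGS2 rose, 2 of 27 tested beside 3.11% of all genes. CXCL8, another neutrophil chemokine, had 674 and 439 CPM untreated and 1013 and 1502 after IR, a log2 fold change of 1.16 (SE 0.24, edgeR adjusted p = 0.0307). PTGS2 had a log2 fold change of 1.16 (SE 0.27, edgeR adjusted p = 0.0426). Without RBM6-KO1 IR replicate B neither was called, with log2 fold changes of 0.86 for CXCL8 and 0.72 for PTGS2, and CXCL8 was under 2-fold at 0.89 without RBM6-KO1 untreated replicate B.

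**Figure D4:**
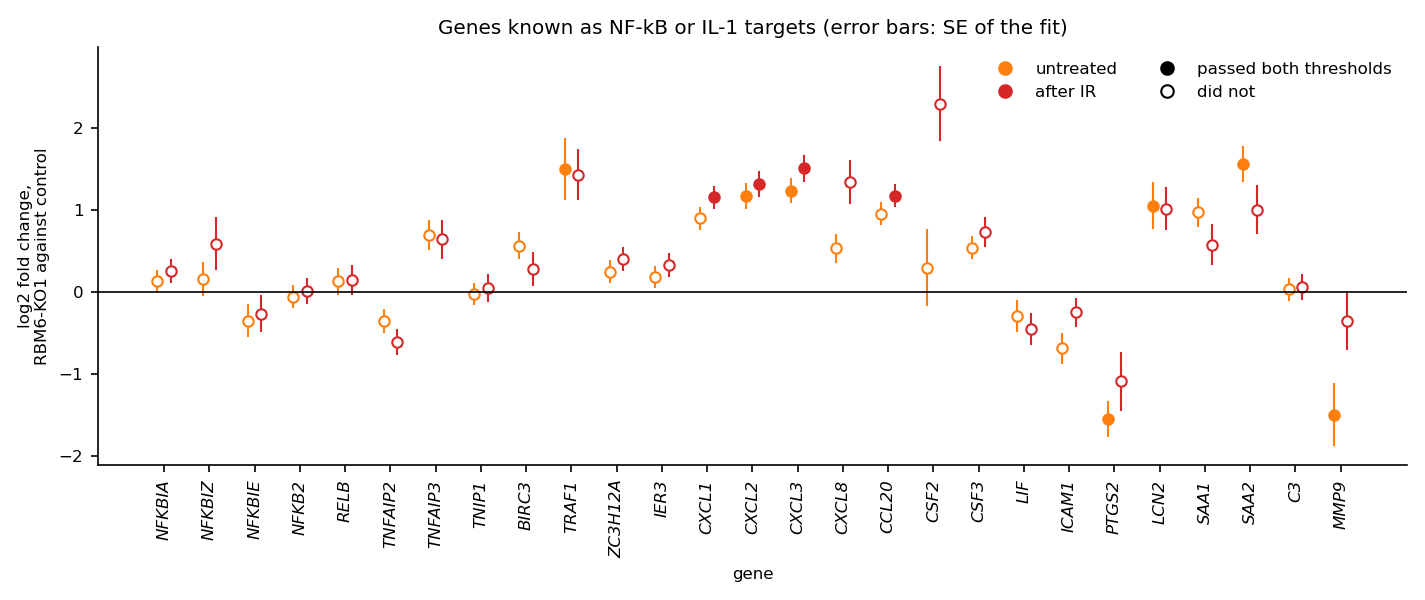
Log2 fold change of RBM6-KO1 against control (vertical axis) for the tested genes known as NF-kB or IL-1 targets (horizontal axis), untreated (orange) and after IR (red), with bars for the standard error of the fit and filled points for genes that passed the adjusted p and the 2-fold limit. Chemokines such as CXCL3 (1.24 and 1.51) lie above 0 in both conditions and PTGS2 (-1.54 untreated) lies below.

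Markers gave the cell types that the RNA could hold. All 12 epithelial markers were tested in every comparison, with summed levels of 12915 to 15626 CPM in untreated control, 11606 to 12745 in irradiated control, 11616 to 12104 in untreated RBM6-KO1 and 9842 to 10066 in irradiated RBM6-KO1 cells. EPCAM, an epithelial adhesion protein, fell in RBM6-KO1 cells by a log2 fold change of -1.79 untreated and -1.82 after IR. It was the only call in the list between genotypes, beside 3.12% and 1.17% of all genes. KRT14, a keratin of basal cells, passed the adjusted p in the other direction in untreated cells, with a log2 fold change of 0.78, under 2-fold. With the adjusted p alone 1 marker was higher and 2 lower, beside 6.12% of all genes. Of the 12 markers, 9 lay below 0 untreated and 11 after IR, beside 7626 of 15556 and 7440 of 15587 genes. Their medians were -0.21 and -0.34. In the response to IR of control cells CDH1 was called higher, at 1.18, beside 3.59% of all genes. The 10 leukocyte markers summed to 16 to 21.8 CPM in untreated control, 17.9 to 20.5 in irradiated control, 9.95 to 10.3 in untreated RBM6-KO1 and 11.4 to 11.5 CPM in irradiated RBM6-KO1 cells. CD3E and TYROBP were at 0 in every library, and PTPRC had 0 to 2 counts. CD14 had 65 to 373 counts, CSF1R 36 to 148 and FCER1G 5 to 23. ITGAM had 0 and 2 counts in untreated control cells and 16 and 23 after IR. CD14 was called lower in untreated RBM6-KO1 cells, with a log2 fold change of -1.81, 1 of 3 tested beside 3.12% of all genes. In the response to IR of control cells 1 of 4 tested leukocyte markers was called higher, beside 3.59%. The 10 fibroblast and endothelial markers summed to 87.0 to 89.6 CPM in untreated control, 98.0 to 119.6 in irradiated control, 125 to 159 in untreated RBM6-KO1 and 177 to 216 CPM in irradiated RBM6-KO1 cells. Most of this was DCN, which encodes decorin, at 66.5 to 204 CPM, while COL3A1 had 0 to 1 counts. Others of the list went in both directions. PECAM1, an endothelial adhesion gene, had 29 and 44 counts in untreated control and 56 and 93 in untreated RBM6-KO1 cells. After IR it had 25 and 35 against 73 and 84. After IR the list held 1 call higher and 1 lower, beside 1.17% of all genes. KDR, an endothelial receptor, had 103 and 65 counts in untreated control and 10 and 0 in untreated RBM6-KO1 cells and was called lower in both conditions, and the collagen gene COL1A1 had 11.5 and 14.4 against 9.22 and 6.32 CPM. The part of these markers in the members' values was not tested. In bulk RNA, fewer cells of a type and less RNA per cell cannot be told apart.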

How the data were processed

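RNA-seq was made from 8 libraries of MCF10A H-Ras cells, 2 for each of 4 groups. Per the labels and the methods, the libraries were TruSeq mRNA, read as pairs on an Illumina HiSeq. The authors deposited 1 table of raw read counts per Ensembl gene, without normalization. STAR, DESeq2 and hg38 are named in the submitters' processing notes, without roles. The counting tool, annotation version and use of strand are not given in the sources used here.

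Counts were tested in R 4.3.3 with edgeR 4.0.16 (quasi-likelihood test, TMM normalization, filterByExpr), each comparison on its own 4 libraries and the interaction on all 8. Calls needed a Benjamini-Hochberg adjusted p under 0.05 over all genes tested and at least a 2-fold change, or the adjusted p alone for the interaction. SE is the log2 fold change over the square root of F. CPM values used TMM over all 8 libraries. Alternatives are in the closing section and used edgeR or DESeq2 1.42.0. The test was checked on simulated data. The replicates are separate samples by label, and p-values measure only the spread between them.

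The members and the gene lists were chosen with earlier results of these data known. Named were all members, called list genes and those behind small counts, genes within 1 Mb of the IL1R2 and IL1B starts, and the 5 genes nearest to IL1R2 in centred log2 CPM (prior count 2). Neighbours shown by their range or count only were not all named. Gene positions and lengths are from GENCODE v44, and promoter sequences from RefSeq, GRCh38.p14.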

Additional observations from a re-analysis of the deposited data

How the results depend on the processing

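In control cells, IR called 1 member (0 as reported) with DESeq2 size factors, DESeq2's Wald test, upper-quartile scaling, no filter, and the replicate block. In RBM6-KO cells it called 0 members with all 8 libraries in 1 fit and 4 with the adjusted p alone (1 as reported). RBM6-KO against control, where counts of members describe the selection only, gave 4 members untreated with the adjusted p alone (2 as reported). After IR it gave 2 with DESeq2's Wald test, no filter, the replicate block and all 8 libraries in 1 fit, and 3 with GC and length trends removed (1 as reported). Over all genes, no filter gave 962 calls for IR in control (553 as reported), 1011 for IR in RBM6-KO (485), 506 for RBM6-KO after IR (182) and 1 for the interaction (0). The adjusted p alone gave 881, 884 and 952 (486 as reported) for both IR responses and RBM6-KO untreated. After IR, RBM6-KO against control had 319 calls with DESeq2's Wald test, 71 with at least 10 counts in every library, 541 with the replicate block, 342 with the trends removed and 340 with all 8 libraries in 1 fit. The NF-kB and IL-1 targets called untreated were 4 with DESeq2's Wald test and 14 with the adjusted p alone (7 as reported). After IR they were 8 with DESeq2's Wald test, 10 with no filter, 10 with the replicate block, 9 with the trends removed and 7 with all 8 libraries in 1 fit (4 as reported). The targets called for IR in RBM6-KO cells were 1 with all 8 libraries in 1 fit (2 as reported). The processing and release genes were 1 with at least 10 counts in every library, which leaves out PYCARD, and 1 with the trends removed (2 as reported). The log2 fold change of IL33 for IR in control cells turned from -0.08 to 0.0032 with the trends removed, and that of IL1A for RBM6-KO after IR from 0.08 to -0.15. The cause of the other shifts was not tested.

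Leaving out each library in turn assumes that the lone library of a group varies like the others. Members called ranged from 0 to 1 for IR in control, 0 to 3 for IR in RBM6-KO, 2 to 4 for RBM6-KO untreated, 1 to 2 after IR and 0 to 0 for the interaction. All-gene calls ranged from 287 (without control untreated B) to 1406 (without control IR A), from 289 (without RBM6-KO IR B) to 1563, from 399 to 658, from 169 to 477 and from 0 to 0 in that order. Target genes called ranged from 5 to 8 untreated, 4 to 8 after IR and 0 to 2 for IR in RBM6-KO cells, and processing genes from 1 to 2. Signs turned for IR in control in IL18 (-0.17 to 0.015) and IL33 (-0.75 to 0.38), for RBM6-KO untreated in IL1RAP (-0.54 to 0.21), IL1A (-0.24 to 0.041) and IL1B (-0.41 to 0.069), after IR in IL1A (-0.048 to 0.19), and for the interaction in IL1R1 (-0.62 to 0.048) and IL1RL1 (-0.16 to 0.55). IL1R2 kept its sign in every alternative run.

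The replicate letters share no stated origin. The A minus B differences of paired groups correlated at -0.181 for IR in control, -0.257 for IR in RBM6-KO, 0.0788 for RBM6-KO untreated and 0.350 after IR, so the letters are not taken as pairs. With the replicate block the all-gene calls were 637, 646, 524 and 541, and IL1A lost its adjusted p for IR in RBM6-KO cells (0.106). Crossed pairing, chosen after seeing the data as were the trend removal and the list counts, gave 965 and 1222 all-gene calls for IR and 1 member in each genotype.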

Other observations

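The 5 genes whose centred log2 CPM over the 8 libraries lay nearest to that of IL1R2, of 16548 compared, were PDE3B (Euclidean distance 2.05), NEU4 (2.19), ESM1 (2.28), GUCY1B2 (2.41) and a non-coding gene, ENSG00000224272 (2.45). ENSG00000224272 overlaps the position of NEU4 on chromosome 2, and the use of strand in counting is not given. All had few counts in control cells, at most 12 in any library. ESM1, which encodes a secreted proteoglycan, had 2 to 12 counts in control libraries and 70 to 86 in RBM6-KO1 libraries, and PDE3B, a phosphodiesterase, had 0 to 2 against 22 to 55. These 5 were picked for their likeness over the same 8 libraries, including the contrast that chose IL1R2, so the likeness is a description.

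The genes around IL1B were described as those around IL1R2 were, and whether the clusters differ was not tested. Besides IL1A and IL1B, 25 genes starting within 1 Mb of IL1B were tested in untreated cells, with a median log2 fold change of 0.13 in RBM6-KO1 against control. Of these 2 were called, beside 3.12% of all genes tested. Called among them were PAX8, a transcription factor gene (log2 fold change 1.75, SE 0.27), and its antisense neighbour PAX8-AS1 (1.46, SE 0.18), which start 442 and 375 kb from IL1B and whose reads cannot be told apart if counting ignored strand. Other IL-1 family genes at this cluster, such as IL37 with at most 8 counts and IL36RN with 0, were nearly silent. Of 12 further family ligands and receptors 4 were tested in untreated cells and none was called, beside 3.12% of all genes. Among them SIGIRR, which dampens IL-1 receptor signalling, had 21.6 and 26.5 CPM in untreated control and 15.6 and 18.1 in untreated RBM6-KO1 cells.

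Genes of the glucocorticoid response were followed because the medium held hydrocortisone. Of 17 genes 16 were tested in untreated cells and none was called in RBM6-KO1 against control, beside 3.12% of all genes. The list's median was -0.07. With the adjusted p alone 4 were lower and 1 higher, from ERRFI1 at -0.80 to GADD45B at 0.79, beside 6.12% of all genes. None was called after IR (1.17% of all genes) or in the response to IR of control (3.59%) or RBM6-KO1 cells (3.11%).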
